A study of Mus musculus with 6 samples.

Results

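The genes that make, sense and remove cyclic AMP (cAMP) were followed in cultured mouse dorsal root ganglion (DRG) neurons given the calcium-binding protein oncomodulin. Members were the protein-coding genes whose symbols name adenylyl cyclases (Adcy), cyclic nucleotide phosphodiesterases (Pde), A-kinase anchoring proteins (Akap), subunits of protein kinase A (Prkac and Prkar) or the transcription factors Creb and Crem. The name pattern found 58 of the 45777 genes in the table, made up of 10 cyclases, 24 phosphodiesterase genes, 6 kinase subunits, 14 anchors and 4 CREB factors. Of these, 54 passed the filter on low counts and were tested.

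The study compared 3 PBS control samples with 3 samples given recombinant oncomodulin (ONCM) at 100 ng/ml, both for 12 hours. Per the labels, every sample came from wild-type C57BL/6 mice, female and 8 weeks old, and no other allele or agent is named. Total RNA from the cultures was sequenced, with 53770820 to 64477014 reads counted per library, of which the 58 members took 0.551% to 0.576%. The samples are called biological replicates, but nothing says that they came from separate cultures or animals, so the p-values measure only the spread between these samples, which may be technical.

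Several facts about the libraries touch every result that follows. The transcript Xist stood at 0.53 ± 0.053 CPM (counts scaled to library size, SD, n = 3) with PBS and at 478 ± 55.8 CPM with ONCM, and the Y-linked gene Ddx3y at 60.5 ± 2.17 and 16.1 ± 0.933 CPM, against the single labelled sex. Treatment and any difference in the source of the cells therefore cannot be told apart for any gene. Neuron markers were abundant, with 10 of them summing to 11190 to 11430 CPM with PBS and 11490 to 12140 CPM with ONCM. Of these 10, 2 rose and 6 fell, beside 23.9% rises and 24.4% falls over all tested genes. Their median log2 fold change was -0.38, from -0.97 (Scn10a) to 0.80 (Tubb3), so the higher sum does not describe most of them. Markers of other cells were present too and their sums differed between the groups. Their calls are set beside the same shares of all tested genes. Of 10 macrophage markers 9 rose (sum 30.6 to 33.7 CPM with PBS, 95.03 to 97.7 CPM with ONCM). Fibroblast markers rose in 6 of 8 cases (356 to 360.5 and 500.0 to 519.9 CPM), as did endothelial markers (159 to 164 and 197 to 208 CPM). Mural cell markers fell in 3 of 7 cases (149 to 150.4 and 109.8 to 111 CPM), so 42.9% passed against 48.3% of all tested genes. Schwann cell markers summed to 3714 to 3782 and 3856 to 4013 CPM, and 4 of 10 rose while 1 fell. Satellite glia markers summed to 2430 to 2487 and 2627 to 2749 CPM, and 3 of 8 rose while 1 fell. No marker of these lists was at 0 in any library, so a member's change cannot be assigned to neurons, and fewer cells of a type and less RNA per cell cannot be told apart. The part of these cell types in the results was not tested.

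As background, cAMP is made from ATP by adenylyl cyclases under the control of G proteins and, for some cyclases, calcium. It is broken down by phosphodiesterases, which differ in whether they cut cAMP, cGMP or both. It acts mostly by binding the regulatory subunits of protein kinase A, which frees the catalytic subunits. Anchoring proteins hold the kinase at chosen places in the cell, and in the nucleus the kinase phosphorylates CREB, which then drives target genes. In sensory neurons raised cAMP is known for sensitising nociceptors and for favouring axon growth.

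By edgeR's quasi-likelihood test with Benjamini-Hochberg adjustment, 15 members rose and 19 fell at an adjusted p under 0.05, and 20 did not pass. Those 34 are 63.0% of the tested members, against 48.3% of all 20354 tested genes. Rises made up 23.9% and falls 24.4% of all tested genes. The members' median log2 fold change was -0.07, against -0.002 for all tested genes, so the genes did not move in one direction. Groups did not overlap for 38 of the 54, against 55.6% of all tested genes, with ONCM higher for 16 (27.6% of all genes) and lower for 22 (28% of all genes). On the log2(TPM + 1) scale, where TPM is a share of transcripts that allows for gene length, 12 members rose and 18 fell. Over all genes the counts gave 4869 rises and 4960 falls, and that scale gave 3631 and 5628. The changes were mostly small. The size of 0.5 on the log2 scale was reached by 13 of the members that passed, 7 upward and 6 downward, while 19.2% of all tested genes changed that much, 10.6% upward and 8.61% downward. A change of at least 2-fold was passed upward by 2 members (6.18% of all tested genes) and downward by 1 (2.01%). Of those 13 members, 10 were phosphodiesterase genes.

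**Figure D1:**
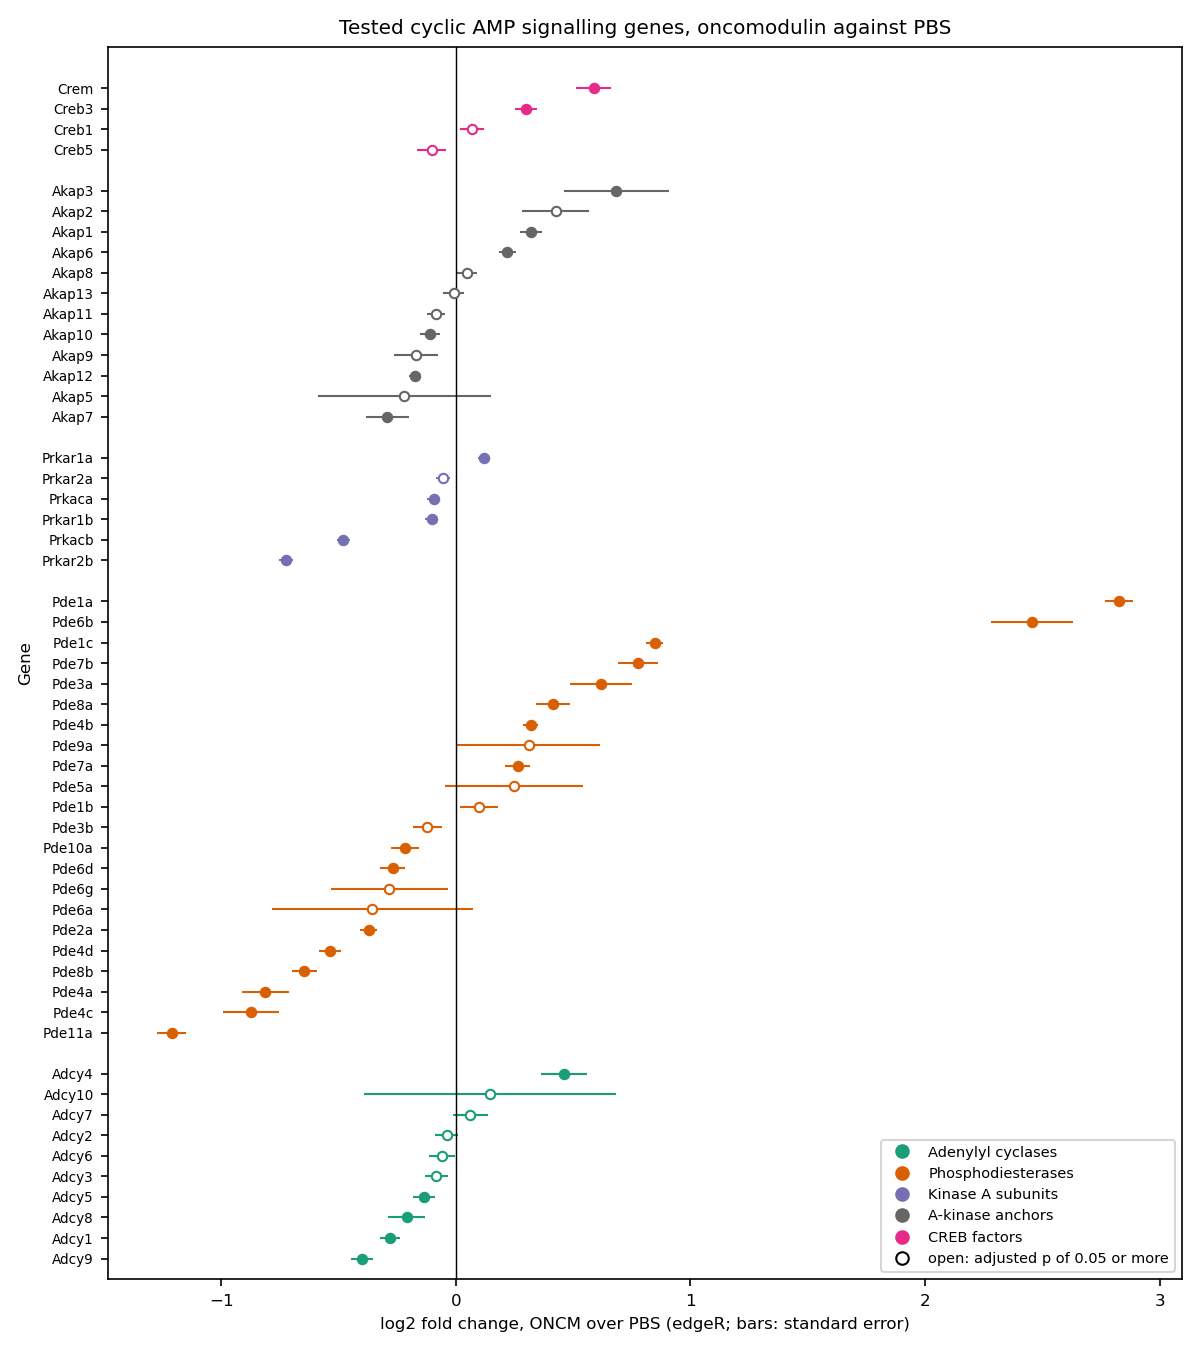
Log2 fold change of ONCM over PBS (x axis) with its standard error for each of the 54 tested genes (y axis), coloured by class. Filled points have an adjusted p under 0.05, and the phosphodiesterases span from -1.21 (Pde11a) to 2.83 (Pde1a) while the cyclases stay between -0.40 and 0.46.

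**Figure D2:**
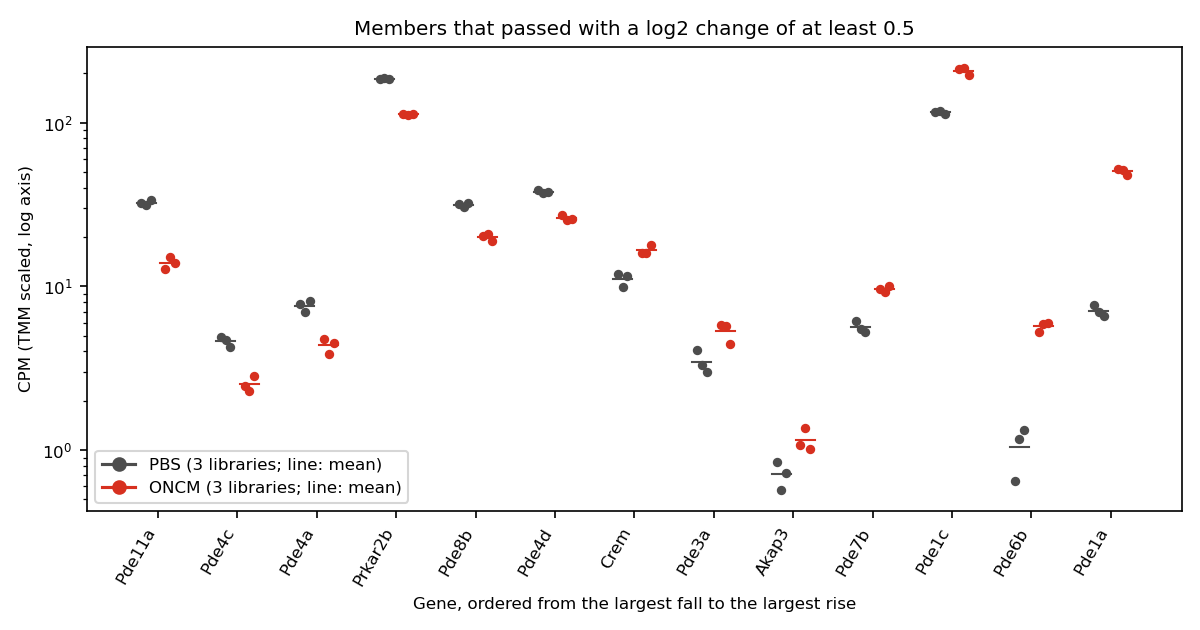
CPM in each library (y axis, log scale) for the 13 members that passed with a log2 change of at least 0.5, ordered from the largest fall to the largest rise (x axis). Points are libraries and lines are group means, and the 3 ONCM libraries lie wholly on one side of the 3 PBS libraries for each of the 13 genes.

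Adenylyl cyclases changed little. Of 10 tested, 4 fell (Adcy9, Adcy1, Adcy8 and Adcy5), Adcy4 rose and 5 did not pass, near the 48.3% of all tested genes that passed. None reached 0.5 on the log2 scale, and their median was -0.07. Groups did not overlap for 5 of the 10, against 55.6% of all tested genes.

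Adcy2, which G protein beta-gamma subunits and protein kinase C stimulate, had the highest mean TPM of the class over all 6 libraries, at 18.75 ± 0.158 TPM (SD, n = 3) with PBS and 17.5 ± 0.834 TPM with ONCM. Its CPM values were 31.3, 31.0 and 31.3 with PBS and 28.6, 30.7 and 31.8 with ONCM, groups that overlapped (log2 -0.04, SE 0.05, edgeR adjusted p = 0.547). Adcy1, a cyclase stimulated by calcium and calmodulin, had a higher mean than Adcy2 with PBS, at 19.9 ± 0.960 TPM, and a lower one with ONCM, at 15.7 ± 1.12 TPM. Adcy1 had 98.4, 99.4 and 91.9 CPM in the PBS libraries, against 81.5, 82.8 and 74.1 CPM in the ONCM libraries. Every ONCM library was below every PBS library (log2 -0.28, SE 0.04, edgeR adjusted p = 2.9e-05). Adcy9, a cyclase known for being little responsive to forskolin, had 51.1, 52.2 and 47.4 CPM with PBS and 38.8, 39.2 and 36.02 CPM with ONCM. This was the lowest fold change of the class (log2 -0.40, SE 0.05, edgeR adjusted p = 9.88e-07), again without overlap. Adcy4, of the calcium-independent cyclases, rose from 4.90 ± 0.491 to 6.74 ± 0.415 CPM (log2 0.46, SE 0.10). Its ONCM libraries also held the higher macrophage, fibroblast and endothelial marker sums given above, whose part in the rise was not tested.

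Adcy8, the other strongly calcium-stimulated cyclase, and Adcy5, which calcium inhibits, fell by 0.21 and 0.14 on the log2 scale. These 2 calls were fragile. Adcy8 was lost with DESeq2, with the replicate number as a block, and without PBS replicate 2, PBS replicate 3, ONCM replicate 2 or ONCM replicate 3, with edgeR, limma or DESeq2 adjusted p from 0.0269 to 0.155 over all fits. Adcy5 was lost with DESeq2 and without PBS replicate 1, PBS replicate 2 or ONCM replicate 1, with adjusted p from 0.0129 to 0.0843 over all edgeR, limma and DESeq2 fits. Both were lost without PBS replicate 2, which leaves 2 falls in the class. The other cyclases that did not pass were Adcy3, Adcy6, Adcy7 and Adcy10, with log2 fold changes of -0.08, -0.06, 0.06 and 0.15. Adcy3 shares 1380 exon bases with the opposite-strand gene Cenpo (3.77 CPM with PBS), and without a stated strand setting their reads cannot be told apart. Adcy10, the soluble cyclase that senses bicarbonate, had at most 38 counts in a library. Adding the 10 cyclases gave 102.8 ± 2.81 TPM with PBS and 89.4 ± 2.27 TPM with ONCM, a sum that is described and not tested.

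Phosphodiesterase genes held the widest changes, in both directions. Of 22 tested, 8 rose, 8 fell and 6 did not pass, a share of 72.7% passing against the 48.3% of all genes, with a median of -0.01. The calcium-stimulated Pde1 genes Pde1a and Pde1c rose, the genes Pde11a and Pde2a fell, and the cAMP-specific Pde4, Pde7 and Pde8 genes divided evenly with 4 raised and 4 lowered of 8.

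Pde1a encodes a phosphodiesterase that calcium and calmodulin switch on, and lies on chromosome 2 (79834453 to 80196522, mm10). The PBS libraries had 7.70, 7.01 and 6.58 CPM, and the ONCM libraries 51.8, 51.6 and 47.9 CPM. The lowest ONCM library was thus far above the highest PBS library. The rise was 7.09-fold (log2 2.83, SE 0.06, edgeR adjusted p = 8.57e-17).

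Pde1c, its relative on chromosome 6 that cuts cAMP and cGMP alike, had 116, 117 and 112.5 CPM with PBS and 212, 215 and 195 CPM with ONCM. The groups did not overlap, and the rise was 1.80-fold (log2 0.85, SE 0.04, edgeR adjusted p = 1.59e-12). Pde1b, the remaining gene of the family, did not pass (log2 0.10, SE 0.08, edgeR adjusted p = 0.337). Because TPM allows for length, the 3 genes could be set beside each other. Together they went from 48.0 ± 1.504 to 101.4 ± 5.74 TPM. Pde1a made up 8.996% ± 0.5002 of that sum with PBS and 29.9% ± 0.207 with ONCM. The Pde1 genes made up 17.5% ± 0.493 of the summed TPM of the 21 catalytic phosphodiesterase genes with PBS and 32.2% ± 0.799 with ONCM.

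The lowest fold change of the members was that of Pde11a, a dual-specificity enzyme that also lies on chromosome 2 (75985808 to 76339145). Its CPM values were 32.3, 31.2 and 33.5 with PBS and 12.8, 15.1 and 13.9 with ONCM. All ONCM libraries were below all PBS libraries, by 2.32-fold in the fit (log2 -1.21, SE 0.06, edgeR adjusted p = 9.32e-12). Pde2a, a dual enzyme that cGMP activates, fell less in proportion (log2 -0.37, SE 0.04) from a higher level, 61.9 ± 1.04 TPM with PBS against 46.4 ± 1.89 TPM with ONCM. It made up 22.6% ± 0.612 of the catalytic phosphodiesterase TPM with PBS and 14.8% ± 0.680 with ONCM. Pde2a shares 3955 exon bases with the same-strand gene model Gm45837, so its count may include reads of that model. Pde10a fell by 0.22 on the log2 scale, and this call was lost on both TPM scales (limma and edgeR adjusted p from 0.0038 to 0.0727 over all fits, DESeq2 included).

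Pde3a, which cGMP inhibits and which is best known from heart, platelets and vessel wall, had 4.10, 3.29 and 2.99 CPM with PBS and 5.80, 5.76 and 4.42 CPM with ONCM. The groups did not overlap, though PBS replicate 1 and ONCM replicate 3 lay close together. It passed (log2 0.62, SE 0.13, edgeR adjusted p = 7.72e-04), and the call was lost on both TPM scales, at 0.25 and 0.46 (adjusted p from 1.31e-04 to 0.0739 over all edgeR, limma and DESeq2 fits). In the same ONCM libraries 6 of 8 endothelial markers rose, against 23.9% of all tested genes. Of 7 mural markers 3 fell and 4 did not pass, where 24.4% of all tested genes fell. Their sum was lower (149 to 150.4 CPM with PBS, 109.8 to 111 CPM with ONCM). The part of these markers was not tested. Pde3b, known from fat and liver, had a log2 fold change of -0.12 (SE 0.06) and did not pass.

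The Pde4 genes encode cAMP-specific enzymes and are the targets of rolipram. Pde4b had the highest level per length among the phosphodiesterases, at 80.1 ± 1.35 TPM with PBS and 96.7 ± 1.46 TPM with ONCM. Pde4b had 131, 128 and 130.7 CPM with PBS and 164, 159.6 and 163 CPM with ONCM, groups that did not overlap (log2 0.32, SE 0.03, edgeR adjusted p = 8.29e-08). The other 3 Pde4 genes fell. Pde4d had 38.5, 37.4 and 37.8 CPM with PBS and 27.3, 25.3 and 25.9 CPM with ONCM (log2 -0.54, SE 0.05, edgeR adjusted p = 1.69e-08). Pde4a had 7.76, 6.97 and 8.17 CPM with PBS and 4.74, 3.85 and 4.48 CPM with ONCM (log2 -0.81, SE 0.10, edgeR adjusted p = 2.01e-06). In none of these genes did a library of one group reach the range of the other. Pde4c, the least counted of the family, had 4.90, 4.70 and 4.26 CPM with PBS and 2.45, 2.30 and 2.83 CPM with ONCM (log2 -0.87, SE 0.12, edgeR adjusted p = 6.85e-06). Pde4b held 80.6% ± 0.697 of the Pde4 TPM with PBS and 89.6% ± 0.796 with ONCM, while the 4 genes together held 36.2% ± 0.444 and 34.4% ± 1.15 of the catalytic phosphodiesterase TPM.

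The Pde8 enzymes have a high affinity for cAMP and resist many inhibitors. Pde8b had 31.7, 30.3 and 32.3 CPM with PBS and 20.4, 21.0 and 18.9 CPM with ONCM. Its ONCM libraries were all lower, and 447 of its exon bases are shared with the antisense model Gm48420 (log2 -0.65, SE 0.05, edgeR adjusted p = 9.02e-09). Pde8a rose by 0.41 (SE 0.07) on the log2 scale, from 9.36 ± 0.620 to 12.5 ± 0.600 CPM. Pde7b, of a cAMP-specific family found in brain and lymphoid cells, had 6.12, 5.49 and 5.24 CPM with PBS and 9.69, 9.21 and 10.05 CPM with ONCM, without overlap (log2 0.78, SE 0.085, edgeR adjusted p = 4.33e-07). Pde7a rose by 0.26 (SE 0.05) on counts but had 0.08 on the log2(TPM + 1) scale, where it did not pass (adjusted p from 3.05e-04 to 0.471 over all edgeR, limma and DESeq2 fits).

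**Figure D3:**
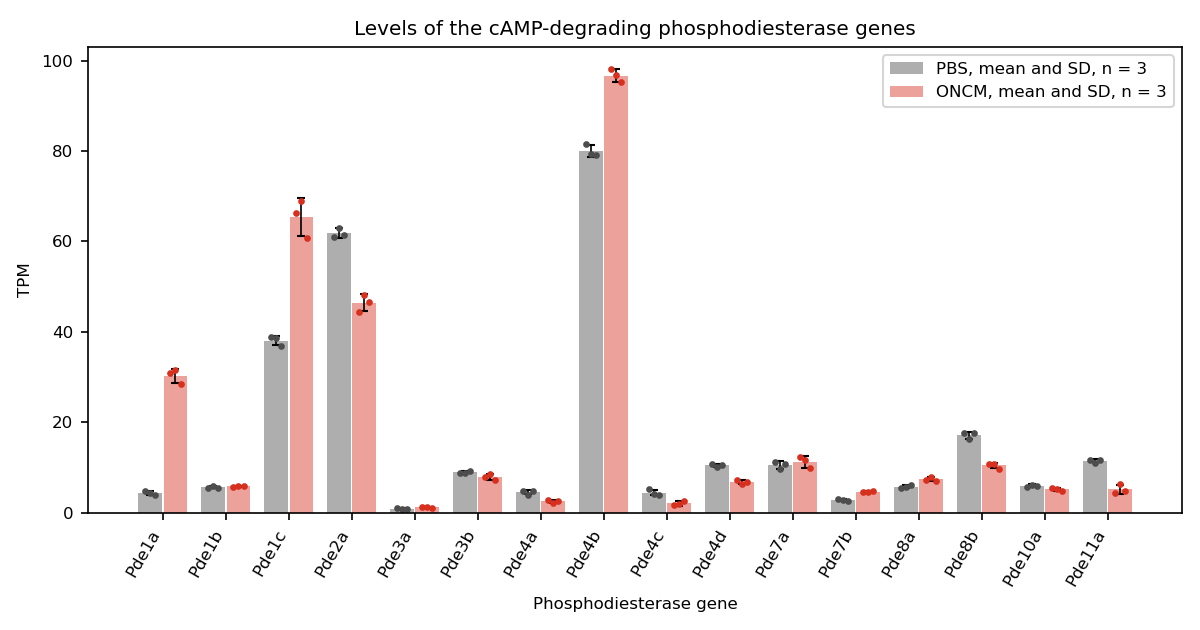
TPM (y axis) of 16 phosphodiesterase genes that act on cAMP (x axis), with bars for the mean, error bars for the SD (n = 3 per group) and points for libraries. Pde4b is the highest gene in both groups, and Pde1c passes Pde2a with ONCM (65.3 against 46.4 TPM) where it was lower with PBS (38.1 against 61.9 TPM).

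Genes for enzymes that act on cGMP alone were scarce, and one photoreceptor subunit stood out. Pde6b, a catalytic subunit of the rod photoreceptor phosphodiesterase (chromosome 5, 108388373 to 108431743), had 0.65, 1.16 and 1.33 CPM with PBS and 5.26, 5.91 and 5.93 CPM with ONCM. Counts were 42, 65 and 77 against 283, 355 and 331. The groups were well apart and the rise was 5.49-fold (log2 2.46, SE 0.17, edgeR adjusted p = 1.37e-09), or 1.62 on the log2(TPM + 1) scale, which shrinks the change of low genes. Its partner subunit Pde6a did not pass, with at most 15 counts in a library, and the inhibitory subunit Pde6g did not pass at 0.863 and 0.71 CPM. Gnat1, a rod marker gene, went the other way in the same libraries, from 1.62 ± 0.309 to 0.715 ± 0.044 CPM (log2 -1.18, SE 0.20, edgeR adjusted p = 9.01e-05). Pde6d, which carries prenylated proteins and is not itself an enzyme, fell by 0.27 on the log2 scale (SE 0.05). Pde5a and Pde9a, the cGMP-specific enzymes, had at most 50 and 37 counts in a library and did not pass. The cone subunits Pde6c and Pde6h had at most 5 and 8 counts and were not tested.

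Subunits of protein kinase A mostly fell, and their TPM levels included the highest of any member. Of 6, Prkar2b, Prkacb, Prkar1b and Prkaca fell, Prkar1a rose and Prkar2a did not pass. A clear size was seen in Prkar2b and Prkacb, and the other 3 changes were 0.12 or less in size on the log2 scale. Passing genes were 5 of 6, against 48.3% of all tested genes, and all 6 had groups that did not overlap, against 55.6%.

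Prkar2b, the type II regulatory subunit that is enriched in brain and fat, lies on chromosome 12 (31958450 to 32061648). The PBS libraries had 185, 186 and 183 CPM, and the ONCM libraries 113, 110.4 and 112 CPM. The libraries of each group were within a few CPM of each other, and the fall was 1.65-fold (log2 -0.72, SE 0.03, edgeR adjusted p = 7.73e-13). Prkar2a, the other type II subunit, had 168.9, 168.9 and 168.2 CPM with PBS and 167.8, 161 and 159 CPM with ONCM, where ONCM replicate 1 was just under the PBS range. It did not pass on counts (log2 -0.05, SE 0.03, edgeR adjusted p = 0.17). On both TPM scales it passed as a fall, at -0.11 and -0.12 (adjusted p from 0.0248 to 0.326 over all edgeR, limma and DESeq2 fits). On those scales the median of all genes also moved by -0.06 from the count fit.

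Type I regulatory subunits, which are mostly cytosolic, moved little and in opposite directions. Prkar1a, found in nearly all cells, had 866, 854 and 852 CPM with PBS and 928, 939 and 930.1 CPM with ONCM (log2 0.12, SE 0.025, edgeR adjusted p = 4.97e-04). Every ONCM library was above every PBS library. On the log2(TPM + 1) scale its value was 0.07 and the call was lost (adjusted p from 1.79e-09 to 0.0507 over all edgeR, limma and DESeq2 fits). Prkar1b, the neuronal form, had the highest level per length of all members, at 742 ± 7.18 TPM with PBS and 662 ± 13.7 TPM with ONCM. Its CPM values were 779, 774 and 777 with PBS and 709.1, 709.0 and 751 with ONCM, where ONCM replicate 3 lay nearer to the PBS libraries than the others did (log2 -0.10, SE 0.03, edgeR adjusted p = 0.00527). On the log2(TPM + 1) scale this fall was -0.16. The median of all genes moved by -0.06 on that scale, which bears on both type I genes.

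Both catalytic subunits fell, to different extents. Prkacb had 282.5, 279.7 and 283 CPM with PBS and 200.2, 207 and 199 CPM with ONCM. The gap between the groups was far wider than the spread within them (log2 -0.48, SE 0.03, edgeR adjusted p = 1.36e-10). Prkaca had 239, 242 and 239.8 CPM with PBS and 223, 226 and 227 CPM with ONCM. That is a small fall without overlap (log2 -0.09, SE 0.03, edgeR adjusted p = 0.00988). It was -0.15 on the log2(TPM + 1) scale, where the median of all genes moved by -0.06.

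In the make-up of the kinase, summed catalytic TPM went from 432 ± 2.92 to 353 ± 6.23, and summed regulatory type II TPM from 227 ± 2.72 to 161.5 ± 3.73. Type I TPM was 1294 ± 16.3 and 1241 ± 3.21. Prkar2b held 9.26% ± 0.055 of the regulatory TPM with PBS and 5.85% ± 0.055 with ONCM. Catalytic TPM was 28.4% ± 0.187 of regulatory TPM with PBS and 25.2% ± 0.494 with ONCM. These sums and shares describe transcripts and were not tested. The sums carry the TPM scaling, under which the median log2(TPM + 1) change of all genes moved by -0.06.

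**Figure D4:**
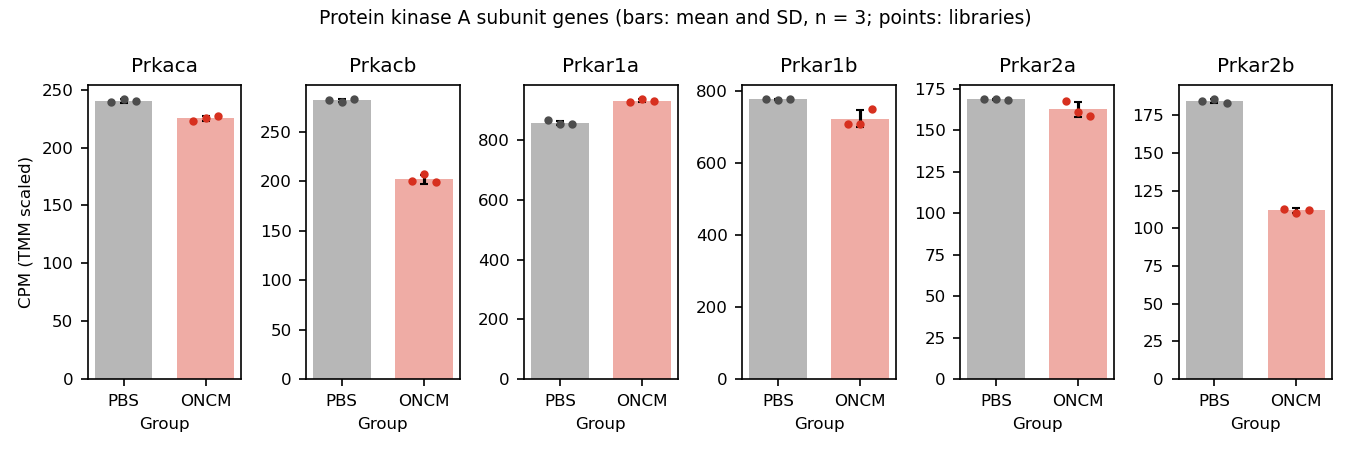
CPM (y axis, a separate scale from 0 for each gene) of the 6 kinase A subunit genes in each group (x axis), with bars for the mean, error bars for the SD (n = 3) and points for libraries. Prkar2b drops from 185 to 112 CPM and Prkacb from 282 to 202 CPM, while the other 4 differ by much less in proportion.

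Anchoring proteins changed little. Of 12 tested, Akap1, Akap6 and Akap3 rose, Akap12, Akap7 and Akap10 fell, and 6 did not pass, with a median of -0.05. That is 6 of 12, near the 48.3% of all tested genes. Groups did not overlap for 8 of the 12, against 55.6% of all tested genes.

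Akap12, also called gravin, a scaffold at the cell membrane that binds beta-adrenergic receptors, was the most abundant anchor at 367 ± 8.29 TPM with PBS and 312 ± 9.73 TPM with ONCM. It had 904, 919 and 887 CPM with PBS and 800.4, 816 and 786 CPM with ONCM. The ONCM libraries were all lower (log2 -0.17, SE 0.03, edgeR adjusted p = 2.49e-05). Akap6, which holds the kinase at the nuclear envelope, rose by 0.22 (SE 0.04), from 530.3 ± 14.5 to 617.5 ± 35.7 CPM. On both TPM scales that call was lost (adjusted p from 1.02e-07 to 0.15 over all edgeR, limma and DESeq2 fits). Akap1, which ties the kinase to the outer mitochondrial membrane, rose by 0.32 (SE 0.05), from 34.3 ± 0.302 to 42.8 ± 2.29 CPM. Akap3, known from the sperm tail, was barely counted, at 0.851, 0.572 and 0.727 CPM with PBS and 1.08, 1.37 and 1.02 CPM with ONCM. Its libraries did not overlap and it passed (log2 0.68, SE 0.22, edgeR adjusted p = 0.0173), but the call was lost with DESeq2, on the log2(TPM + 0.1) scale and without PBS replicate 2 or ONCM replicate 2, and the value was 0.26 on the log2(TPM + 1) scale (adjusted p from 0.0148 to 0.103 over all edgeR, limma and DESeq2 fits).

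Akap7, a small membrane anchor tied to calcium channels, had -0.29 (SE 0.09), resting in part on PBS replicate 1 at 12.1 CPM beside 9.85 and 9.09 CPM. Without that library it was -0.17 and did not pass, nor did it pass with DESeq2 (adjusted p from 0.00355 to 0.131 over all edgeR, limma and DESeq2 fits). Akap10, of mitochondria, fell by 0.11 and lost its call in 9 of 13 alternative fits, without any of PBS replicates 1, 2 and 3 or ONCM replicates 1 and 3 among them (adjusted p from 0.0209 to 0.969 over all edgeR, limma and DESeq2 fits). Without PBS replicate 1, Akap7 and Akap10 were both lost and 1 anchor fell. Akap2 had 218.5, 229 and 172 CPM with PBS and 256, 307 and 269 CPM with ONCM. Its groups did not overlap, but PBS replicate 3 stood low and the gene did not pass (log2 0.43, SE 0.14, edgeR adjusted p = 0.0745). Without PBS replicate 3 it passed at 0.30, as it did with DESeq2, with the block and on both TPM scales (adjusted p from 0.00972 to 0.162 over all edgeR, limma and DESeq2 fits). Akap2 shares 6891 exon bases with the same-strand gene model Pakap, so how its reads were divided is uncertain. Akap9, of the centrosome and Golgi, was low in ONCM replicate 3 (60.5, 59.8 and 46.8 CPM with ONCM) and did not pass. Akap11, Akap13, Akap8 and Akap5 had log2 fold changes of -0.08, -0.01, 0.05 and -0.22 and did not pass, although Akap11 passed as a fall with the block and without ONCM replicate 1 (adjusted p from 0.0334 to 0.339 over all edgeR, limma and DESeq2 fits). Akap5, the anchor of receptors at excitatory synapses, had at most 41 counts in a library. The sperm and cilia anchors Akap4 and Akap14 had at most 2 and 7 counts and were not tested.

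Among the CREB factors Crem and Creb3 rose, and Creb1 and Creb5 did not pass. Crem, whose transcripts encode activators as well as the inducible repressor ICER, had 11.8, 9.89 and 11.5 CPM with PBS and 16.1, 16.1 and 17.8 CPM with ONCM. All ONCM libraries were above the PBS libraries, by 1.503-fold (log2 0.59, SE 0.07, edgeR adjusted p = 2.59e-06). Gene-level counts do not separate ICER from the other Crem transcripts, and Crem shares 472 exon bases with the opposite-strand model Gm6225, itself at 0.273 and 0.469 CPM. Creb3, a factor held in the endoplasmic reticulum membrane until it is cut, had the highest level per length of the class, at 55.9 ± 1.46 TPM with PBS and 65.9 ± 4.23 TPM with ONCM. Its CPM values were 33.4, 35.4 and 34.3 with PBS and 45.2, 40.8 and 40.9 with ONCM (log2 0.30, SE 0.05, edgeR adjusted p = 4.43e-05). Creb3 shares 360 exon bases with the opposite-strand gene Tln1, which rose by 0.51 on the log2 scale, and 133 with Gba2, which fell by 0.29. Their reads cannot be told apart where they overlap if strand was not used, and the part of Tln1 in the rise of Creb3 was not tested. Creb1, the factor that kinase A phosphorylates, had 38.5, 36.4 and 36.9 CPM with PBS and 42.1, 39.1 and 36.2 CPM with ONCM, groups that overlapped (log2 0.07, SE 0.05, edgeR adjusted p = 0.291). Without ONCM replicate 3 it passed at 0.12 (adjusted p from 0.0409 to 0.865 over all edgeR, limma and DESeq2 fits). Creb5 had 15.6, 14.4 and 15.6 CPM with PBS and 14.7, 13.8 and 13.9 CPM with ONCM, which also overlapped (log2 -0.10, SE 0.06, edgeR adjusted p = 0.19).

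CREB binds the cAMP response element TGACGTCA, or its shorter form TGACG, and the promoters of the members were searched for both on either strand. The RefSeq promoter table (GRCm38.p6, the assembly of mm10) gives windows of 300 bases, from 250 before a transcript's start to 50 after it. It matched 46 of the 58 members with 89 windows. The 12 members without a window, Crem, Akap12, Pde3a and Pde7a among them, could not be searched. The full element was in 3 of the 89 windows (3.37%), against 2.23% of all 21296 protein-coding windows. The short form, which the full element contains, was in 18 (20.2%) against 23.7%. The windows with the full element belonged to Prkar1a, where 2 of 6 windows, which overlap, hold the same site, and to Creb5. Both are printed because they carry the element, with Pde1a, the member with the largest rise, for which 1 of 4 windows held the short form as CGTCA on the opposite strand. Capitals mark the full element for Prkar1a and Creb5 and the short form for Pde1a. The marked letters begin 49 bases before the start for Prkar1a, 45 for Creb5 and 166 for Pde1a. Sequences read 5′ to 3′ along the gene's strand.
Prkar1a, chr11:109650699-109650998, plus strand: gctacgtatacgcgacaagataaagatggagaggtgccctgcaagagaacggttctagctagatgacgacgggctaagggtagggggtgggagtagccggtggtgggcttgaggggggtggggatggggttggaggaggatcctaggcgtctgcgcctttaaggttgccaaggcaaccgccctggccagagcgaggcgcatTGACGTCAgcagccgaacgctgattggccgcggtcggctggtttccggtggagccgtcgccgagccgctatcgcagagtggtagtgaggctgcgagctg
Creb5, chr6:53287053-53287352, plus strand: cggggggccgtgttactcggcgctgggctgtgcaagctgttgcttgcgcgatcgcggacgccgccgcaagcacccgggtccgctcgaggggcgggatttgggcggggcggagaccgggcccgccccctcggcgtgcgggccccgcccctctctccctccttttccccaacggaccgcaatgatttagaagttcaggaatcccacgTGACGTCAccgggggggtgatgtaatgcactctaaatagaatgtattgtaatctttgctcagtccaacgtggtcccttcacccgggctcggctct
Pde1a, chr2:80038853-80039152, minus strand: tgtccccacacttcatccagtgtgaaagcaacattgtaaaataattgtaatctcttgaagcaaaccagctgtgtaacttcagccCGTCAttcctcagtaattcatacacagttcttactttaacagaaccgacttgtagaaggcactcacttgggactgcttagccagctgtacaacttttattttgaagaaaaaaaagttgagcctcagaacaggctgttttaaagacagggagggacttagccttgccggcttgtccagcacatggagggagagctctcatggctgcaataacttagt
Of these genes, Pde1a rose 7.09-fold, Prkar1a rose by 0.12 on the log2 scale, and Creb5 did not pass. A match describes letters in the window and does not show that a factor binds there.

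The rest of the pathway was read from lists of genes outside the name pattern, each set beside all tested genes, of which 48.3% passed, 23.9% as rises and 24.4% as falls. Of 25 tested receptors coupled to the inhibitory G protein Gi, 18 fell, 3 rose and 4 did not pass, with a median log2 fold change of -0.47. Those with the smallest p were Oprd1, the delta opioid receptor (log2 -1.23, SE 0.07), the serotonin receptors Htr1d and Htr1b (-0.76 and -0.83) and the adenosine receptor Adora1 (-0.47). The Gi-coupled receptor genes that rose were Adra2a (log2 1.08), Npy1r (0.55) and Htr1f (0.375). Of 23 tested receptors coupled to the stimulatory protein Gs, 10 fell, 3 rose and 10 did not pass, with a median of -0.40. The smallest p among those that fell belonged to the prostacyclin receptor Ptgir (-0.72, SE 0.04), the serotonin receptor Htr7 (-1.03), Gpr3 (-0.75) and the prostaglandin receptor Ptger2 (-0.73). The Gs-coupled receptor genes that rose, Adrb3 (log2 1.66), Mc1r (1.02) and Adora2b (0.49), had means under 2 CPM in both groups. Of 10 neuron markers in the same libraries 6 fell, 2 rose and 2 did not pass. The median log2 fold change of these markers was -0.38, although their sum was 11190 to 11430 CPM with PBS and 11490 to 12140 CPM with ONCM. Their part was not tested.

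Among 7 G protein subunits, Gnao1, Gnai1, Gnal and Gnas fell, Gnai2 rose, and 2 did not pass, so 5 of 7 passed against 48.3% of all tested genes. Gnas, a stimulatory subunit, went from 2066 ± 43.9 to 1915 ± 74.5 CPM (log2 -0.11, SE 0.03), and Gnal had -0.31. Among the inhibitory-type subunits, Gnao1, the main one of neurons, had -0.47 (SE 0.03) and Gnai1 -0.46. Of 13 tested effectors other than kinase A, 5 fell, 1 rose and 7 did not pass, a share of 46.2% passing that was near the 48.3% of all tested genes. Rapgef4, which encodes the cAMP-activated exchange factor Epac2, went from 183 ± 3.47 to 130.3 ± 1.37 CPM (log2 -0.49, SE 0.03). The pacemaker channel gene Hcn2 had -0.61 (SE 0.04), and Bves and Hcn4 had -0.71 and -0.53. Epac1, encoded by Rapgef3, did not pass.

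Inhibitor peptides of kinase A and relatives, listed together, all passed, 3 upward and 2 downward of 5, against 48.3% of all tested genes passing. Pkib, an inhibitor peptide of the catalytic subunit, rose from 17.9 ± 1.91 to 30.6 ± 1.33 CPM (log2 0.77, SE 0.07), while Pkia, the inhibitor of nerve and muscle, went from 59.9 ± 1.21 to 49.1 ± 1.02 CPM (log2 -0.29, SE 0.04). Pkig, another inhibitor peptide, rose by 0.31, Gskip fell by 0.35 and Prkx, a kinase related to the catalytic subunits, rose by 0.15. Of 15 tested CREB coactivators and regulators, 2 rose, 7 fell and 6 did not pass, beside 23.9% rises and 24.4% falls over all tested genes. Crebl2, Crebrf and Creb3l1 fell by 0.77, 0.44 and 0.33 and Sik3 rose by 0.22 on the log2 scale. Among the coactivator genes, Crtc1 and Crtc2 fell by 0.15 and 0.14 on the log2 scale, and Crtc3, Crebbp and Ep300 did not pass.

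Genes known as CREB targets did not move as one. Of 32 tested, 11 rose, 14 fell and 7 did not pass, with a median of 0.01, so 78.1% passed against 48.3% of all tested genes (23.9% rises and 24.4% falls). Adcyap1, which encodes the neuropeptide PACAP, rose from 56.4 ± 1.32 to 176 ± 1.71 CPM (log2 1.65, SE 0.03, edgeR adjusted p = 3.94e-17). Tac1, for substance P, and Scg2, a granule protein, fell by 0.85 and 0.74, and the phosphatase gene Dusp1 rose by 0.68.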

How the data were processed

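Libraries of total RNA from cultured mouse DRG neurons, 3 with PBS and 3 with oncomodulin, were grouped by their labels. The authors deposited 1 table with raw read counts, FPKM and TPM per gene and library. Counts were used for the tests and the deposited TPM values to compare levels between genes. The FPKM values the authors deposited were not used here. The submitters' processing notes name the build mm10, and no aligner, counter, annotation or strand setting is stated: these were not given in the sources used here.

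In R 4.3.3, edgeR 4.0.16 fitted the whole table (filterByExpr, TMM, glmQLFit with robust fitting, glmQLFTest, no covariate), and p-values were adjusted by Benjamini-Hochberg over all 20354 tested genes, with 0.05 as the threshold. CPM values carry TMM scaling. Standard errors divide the log2 fold change by the root of F. "Rose" and "fell" mark genes that passed. Alternatives used DESeq2 1.42.0, limma 3.58.1 on log2(TPM + 1) and log2(TPM + 0.1), RLE factors, no filter, a replicate block, no genes of chromosomes X, Y and MT, and each library left out. Replicates differed by more than sampling noise (chi-square per degree of freedom 2.76 to 7.09).

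The members and gene lists were chosen with earlier results of these data known. Values per library are given for members that passed with a log2 change of at least 0.5, for the member of each class with the highest mean TPM over all libraries, and for all kinase subunits and CREB factors. In other lists up to 4 genes with the smallest p are named. Adcy1, Adcy9, Gnas, Rapgef3, Pkig, Crtc1, Crtc2, Crtc3, Crebbp, Ep300 and the receptors that rose were chosen after their values were seen. Positions come from RefSeq GRCm38.p6 for 57 of 58 members, and exon overlaps from GENCODE M21. Library totals set a floor of 3 counts at 0.0464 to 0.0558 CPM, which covers counting error only, because no molecular identifiers are described. Some marker and list results are not reported here.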

Additional observations from a re-analysis of the deposited data

How the results depend on the processing

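Of the 54 tested members, 34 kept both their direction and their side of the threshold in all 13 alternative fits. Pde1a kept a rise of 2.56 to 2.89 and Prkar2b a fall between -0.78 and -0.71 over all fits. The number of members that rose was 15, and 12 to 16 over the alternatives, and the number that fell was 19, and 15 to 19. Leaving out 1 library gave 14 to 16 rises and 16 to 18 falls. For single classes it gave 2 to 3 falls among cyclases and 1 to 3 among anchors. DESeq2 gave 2 falls among cyclases and 1 among anchors, against 4 and 3, and on log2(TPM + 1) 0 kinase subunits rose. Over all genes, rises were 48.7% to 50.7% of calls in the alternative count fits and 39.2% on both TPM scales (3631 rises and 5628 falls on log2(TPM + 1)), where the median of all genes moved by -0.06.

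Same-numbered samples did not deviate together over all genes (correlations -0.045, -0.012 and 0.002), so no pairing by number was seen. A weak shared effect, or one in few genes, could give the same values, so pairing is not excluded. With the replicate block 16 members rose and 19 fell, and 4733 and 4864 genes over the whole table. Values of the opposite sign were seen for members that did not pass in either fit. Akap8 had -0.017 and -0.018 on the TPM scales. Without single libraries Adcy10 ran from -0.72 to 0.55, Adcy2 from -0.073 to 0.001, Akap13 from -0.061 to 0.028, Akap5 from -0.52 to 0.079 and Pde5a from -0.085 to 0.42. The cause of these changes was not tested. Precision at this depth is poorest for Adcy10, Akap5, Pde5a, Pde6a and Pde9a, with standard errors from 0.29 to 0.54.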

Other observations

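Proteins that anchor kinase A without carrying the Akap name divided evenly, with 4 raised, 4 lowered and 3 not passing of 11, so 72.7% passed against 48.3% of all tested genes. Ezr, which encodes ezrin, went from 246 ± 3.31 to 345 ± 9.15 CPM (log2 0.49, SE 0.03, edgeR adjusted p = 1.28e-10), and Nbea, for neurobeachin, from 20.3 ± 0.236 to 30.6 ± 1.16 CPM. Synm and Sphkap had log2 fold changes of -0.37 and -0.58.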
